A study of Mus musculus with 8 samples.

Results

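The respiratory complex assembly factors are proteins that help to build complexes I to V of the mitochondrial respiratory chain without staying in the finished enzyme. They were chosen by symbol from a list of 42 genes, 14 for complex I, 4 for complex II, 6 for complex III, 15 for complex IV and 3 for complex V, and 41 of them have a row among the 22065 named genes of the count table. Sco2 was not analysed here. Cox20 did not pass the filter on low counts, so that 40 members were tested.

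RNA-seq was done on 8 libraries, each from 100 hematopoietic stem cells (HSCs). The cells were sorted as CD150+ CD48- EPCR+ Lineage- from bone marrow of C57BL/6 mice aged 8 to 10 weeks, a week after Poly:IC injection. The paper's definition of long-term HSCs also requires c-Kit, the protein that Kit encodes. The 4 Mitol KO libraries came from Mitol Flox/Flox mice that carried MX1-cre, and the 4 Control libraries from Mitol Flox/Flox littermates without the Cre, so both groups carried the floxed alleles and both received Poly:IC. The Mx1 promoter answers to interferon and is not restricted to HSCs, so other cells of these mice could also lose Mitol. The labels do not say whether the libraries came from separate animals, and p-values measure only the spread between these libraries, which may be technical.

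The respiratory complexes join subunits made mostly from nuclear genes, and in all but complex II also from mitochondrial DNA, and those that carry electrons hold iron-sulfur clusters, heme or copper. Assembly factors hold unfinished intermediates, deliver these cofactors or insert subunits into the inner membrane, and loss of many of them gives an isolated deficiency of one complex. HSCs are known to rely on glycolysis at rest and to call on respiration when they are activated.

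Counts on named genes summed to between 7214935 and 12398138 per library. The targeted gene Marchf5, which encodes MITOL, an E3 ubiquitin ligase of the mitochondrial outer membrane, had 274 ± 31.8 normalized counts in Mitol KO and 302 ± 29.9 in Control HSCs (SD, n = 4 each), with overlapping groups. Counts per gene cannot separate deleted exons from remaining ones, so they do not check the deletion, and every direction given here is that of the libraries labelled Mitol KO. The paper states that it checked the deletion in the mice by PCR. All 9 HSC markers examined were present, but their summed normalized counts were 19210.0 to 22785 in Mitol KO and 27495 to 32568 in Control libraries, and Kit and Hlf, the 2 genes with the highest counts, were lower in Mitol KO at the threshold used here. The other 7 did not pass, with log2 fold changes of 0.56 for Slamf1 and 0.76 for Ly6a. Those below 0 were -0.56 for Hoxb5, -0.34 for Procr, which encodes EPCR, -0.13 for Mecom, -0.10 for Fgd5 and -0.06 for Ctnnal1. The 7 red-cell genes examined summed to 1065 to 3497 in Mitol KO and 463 to 895 in Control libraries. Hbb-bt, a beta-globin gene, was higher in Mitol KO, with 801 to 1432 normalized counts against 144 to 595 in Control libraries (log2 fold change 1.29, edgeR adjusted p = 0.0442). Mitol KO replicate 3 had the highest sum, with the beta-globin gene Hbb-bs at 1048 normalized counts there and at most 19.7 in each of the other 7 libraries. Summed levels of the neutrophil, B-lineage, T-cell, mast and basophil, macrophage, and endothelial and stromal lists overlapped between the groups. The part of these markers in the results on assembly factors was not tested.

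Most assembly factor transcripts did not differ between Mitol KO and Control HSCs beyond the spread between libraries. One member of the 40 tested, the complex III factor Uqcc2, rose, and none fell, by the quasi-likelihood test of edgeR at an adjusted p under 0.05 over all genes tested. Over all 16444 genes the same test called 8.43%, with 4.68% higher and 3.75% lower in Mitol KO. DESeq2 called 2 members, Uqcc2 and the complex II factor Sdhaf1, where it called 14% of all genes. At an unadjusted p under 0.05 there were 5 members, 4 higher and Cox17 lower, where the background was 26.4% of all genes. In 3 members, Uqcc2, Sdhaf1 and the complex IV factor Coa5, every Mitol KO library was above every Control library, and none of the 40 members tested showed the opposite. Of all genes tested, 8.17% were separated upward in this way and 7.18% downward.

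The promoter windows of the 2 genes with the strongest results, Uqcc2 and Sdhaf1, and of Uqcc1, the partner of Uqcc2, are shown so that the transcripts that differed by either test can be set beside one that did not. They are RefSeq sequences of GRCm38.p6, from 250 bases before to 50 bases after the annotated start, and each was found once on its chromosome in GRCm39, at chr17:27352816-27353115 for Uqcc2, chr7:30021751-30022050 for Sdhaf1 and chr2:155772181-155772480 for Uqcc1, all on the minus strand. For Sdhaf1 this window lies inside the gene as GENCODE vM39 draws it (30020831 to 30023320). Capitals mark matches on either strand to the NRF1 motif (GCGCA, any base, GCGC), AAGATGGC (YY1), CCGGAAG (ETS) or CACGTG (E-box), and the end of the ETS letters can overlap the start of the YY1 letters.
Uqcc2: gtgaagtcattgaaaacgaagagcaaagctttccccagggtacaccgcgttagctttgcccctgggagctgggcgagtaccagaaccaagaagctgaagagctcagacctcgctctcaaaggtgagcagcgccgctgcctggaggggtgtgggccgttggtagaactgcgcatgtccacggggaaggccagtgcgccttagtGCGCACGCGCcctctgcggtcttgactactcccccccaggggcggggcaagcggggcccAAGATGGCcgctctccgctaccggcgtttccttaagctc
Uqcc1: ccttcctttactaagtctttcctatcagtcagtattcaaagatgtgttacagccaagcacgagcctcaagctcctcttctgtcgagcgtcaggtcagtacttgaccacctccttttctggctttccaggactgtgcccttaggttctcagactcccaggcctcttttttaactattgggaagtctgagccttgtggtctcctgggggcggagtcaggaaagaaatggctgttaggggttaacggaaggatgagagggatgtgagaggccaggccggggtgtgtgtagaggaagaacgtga
Sdhaf1: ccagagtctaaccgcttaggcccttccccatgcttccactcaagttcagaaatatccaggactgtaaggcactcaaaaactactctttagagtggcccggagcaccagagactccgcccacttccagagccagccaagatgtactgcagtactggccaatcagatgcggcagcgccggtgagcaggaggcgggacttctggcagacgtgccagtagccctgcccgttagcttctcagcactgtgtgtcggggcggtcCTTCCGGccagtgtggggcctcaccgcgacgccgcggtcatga
The Uqcc2 window held the NRF1 and the YY1 letters, the Sdhaf1 window held the ETS letters on the opposite strand, and the Uqcc1 window held none of the 4 motifs. The window of Coa5, whose groups were separate but which passed neither test, also held none. Members that passed neither test held the same letters, among them Sdhaf2, Sdhaf3, Sco1 and Surf1 for ETS. For NRF1 they were Ndufaf4, Ndufaf5, Sdhaf3 and Sdhaf4. A link between motifs and fold changes was not tested. Of the 36 members with a promoter in that table, 5 (13.9%) held the NRF1 letters, 6 (16.7%) the YY1 letters, 14 (38.9%) the ETS letters and 6 (16.7%) the E-box letters. Over all 27025 genes of the table the shares were 5.19%, 3.19%, 9.93% and 8.09%. Of the 64 nuclear genes for respiratory chain subunits with a promoter there, 16 held the NRF1 letters, 10 the YY1 letters, 17 the ETS letters and 6 the E-box letters. The NRF1 share was thus higher in subunit genes than in members, and the shares of the other motifs were lower. These differences in share were not tested. A match describes the letters of the window and is not evidence of binding.

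Complex III passes electrons from ubiquinol to cytochrome c. Its assembly starts from cytochrome b, which is made in the mitochondrion and is received there by Uqcc1 and Uqcc2. Uqcc2 (ENSMUSG00000024208) lies on chromosome 17 of GRCm39 from 27341635 to 27352898 on the minus strand. Its normalized counts, which are counts divided by the DESeq2 size factor of the library, were 303, 326, 279 and 306 in Mitol KO replicates 1 to 4 and 266, 154, 182 and 170 in Control replicates 1 to 4. All 4 Mitol KO libraries were above all Control libraries, and Control replicate 1 came close to the lowest of them. The mean was 304 ± 19.3 in Mitol KO and 193 ± 50.2 in Control HSCs (SD, n = 4 each), a log2 fold change of 0.64 (standard error 0.17, edgeR adjusted p = 0.0378; DESeq2 adjusted p = 0.00514). The exact 2-sided permutation test gave p = 0.0286, the smallest p that 4 against 4 libraries allow, which any gene with separate groups reaches (15.4% of all genes tested). The call was lost when any of 6 libraries was left out, Mitol KO replicates 1, 2 and 3 (edgeR adjusted p = 0.0837, 0.0969 and 0.0658) and Control replicates 2, 3 and 4 (edgeR adjusted p = 0.107, 0.0869 and 0.101), with the log2 fold change between 0.55 and 0.84 over the 8 fits that left 1 library out.

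Uqcc1, which acts in one complex with Uqcc2, had 394, 377, 379 and 316 normalized counts in Mitol KO and 367, 369, 300 and 287 in Control replicates. The groups overlapped, and the log2 fold change of 0.13 had a 95% confidence interval from -0.14 to 0.41. Uqcc3, a membrane protein that acts after them, stood at 0.04, and Bcs1l, the ATPase that moves the Rieske iron-sulfur protein across the membrane, at 0.14. Lyrm7, the chaperone of the Rieske protein, had a log2 fold change of 0.02 with the widest error of all members tested (standard error 0.50), since Mitol KO replicate 4 had 8.46 normalized counts and Control replicate 2 had 19.2. Ttc19, which clears fragments of the Rieske protein after its insertion, had -0.15. None of these 5 passed the test. In normalized counts per kilobase of the canonical transcript, Uqcc2 was the highest of the complex III factors, at 366 ± 95 in Control HSCs, followed by Uqcc1 at 124 ± 16.2 and Bcs1l at 124 ± 20.1, which did not differ beyond their spread.

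**Figure D1:**
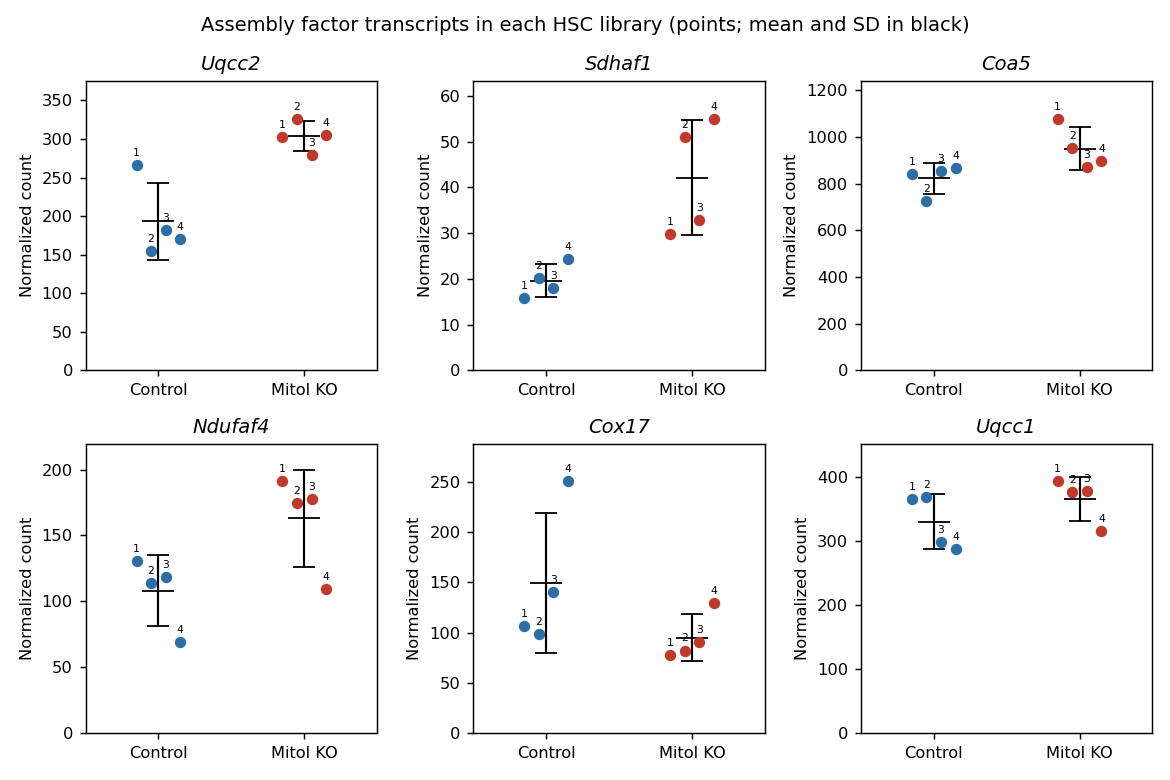
Normalized counts of 6 assembly factor genes (vertical axes, each from 0) in the 4 Control (blue) and 4 Mitol KO (red) libraries, numbered by replicate, with mean and SD in black. For Uqcc2, Sdhaf1 and Coa5 the groups do not overlap, while for Ndufaf4, Cox17 and Uqcc1 they do.

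Complex II, succinate dehydrogenase, is encoded wholly in the nucleus, and its factors prepare its flavin and iron-sulfur subunits. Sdhaf1 (ENSMUSG00000074211), which helps to deliver iron-sulfur clusters to Sdhb, lies on chromosome 7 from 30020831 to 30023320. It had 29.7, 50.9, 33.0 and 55 normalized counts in Mitol KO replicates and 15.8, 20.2, 17.9 and 24.2 in Control replicates. Every Mitol KO library was above every Control library, but the level was low, with 252 reads over all 8 libraries. The log2 fold change was 1.07, the largest of the members tested (standard error 0.33, edgeR adjusted p = 0.0613; DESeq2 adjusted p = 0.0302). DESeq2 was the 1 setting of 7 others with all libraries that called Sdhaf1. None of the 8 fits that left 1 library out called it (edgeR adjusted p = 0.0704 to 0.156).

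Sdhaf2, the factor for attaching the flavin to Sdha, was the highest of the 4 per length, at 154 ± 18.9 normalized counts per kilobase in Control HSCs. It had 495, 383, 549 and 472 normalized counts in Mitol KO and 414, 406, 518 and 495 in Control replicates, with groups that overlapped fully and a log2 fold change of 0.03 (95% confidence interval -0.26 to 0.33). Sdhaf3, a partner of Sdhaf1 in the maturation of Sdhb, had a log2 fold change of 0.02. Sdhaf4, which binds flavinylated Sdha, had 0.51, with Mitol KO replicates from 42.3 to 109 and Control replicates from 41.5 to 59.3 normalized counts. Neither passed the test.

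Complex I takes electrons from NADH and is the largest of the complexes. None of its 14 factors passed the edgeR test, 1 (Ndufaf4) had an unadjusted p under 0.05 and DESeq2 called 0, and in none were the groups separated. Their log2 fold changes ran from -0.19 to 0.63 with a median of 0.14, and 10 of 14 were above 0. Ndufaf8, which works with the hydroxylase Ndufaf5, was the highest per length at 240 ± 46.2 normalized counts per kilobase in Control HSCs. Its normalized counts were 250, 218, 222 and 149 in Mitol KO and 218, 137, 211 and 201 in Control replicates, and 3 of the 4 Mitol KO libraries were above every Control library, 2 of them by little, while replicate 4 was lower than 3 of the Control libraries (log2 fold change 0.12, standard error 0.19).

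Members of the mitochondrial complex I intermediate assembly complex, which puts together part of the membrane arm, had 95% confidence intervals that all held 0. Ndufaf1 stood at a log2 fold change of 0.24, Timmdc1 at 0.30, Ecsit at 0.00, Acad9 at -0.14 and Tmem126b at -0.15. The factors for the part that binds ubiquinone stood at -0.17 for Ndufaf3 and 0.58 for Ndufaf4, which bind each other. Ndufaf4 had Mitol KO replicates at 191, 175, 178 and 109 and Control replicates at 131, 114, 119 and 69.1 normalized counts. Replicate 4 was the lowest in both groups, and Mitol KO replicate 4 lay below 3 Control libraries. The difference did not pass the test (edgeR adjusted p = 0.133), and it did without Mitol KO replicate 4 (log2 fold change 0.75, edgeR adjusted p = 0.0348).

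The other complex I factors did not pass the test either. Ndufaf2, a late factor that takes the place of a subunit until the end of assembly, had 0.63 with a standard error of 0.36. Ndufaf5, a hydroxylase, had 0.33, the methyltransferase Ndufaf7 -0.19, Ndufaf6 0.27, Nubpl, which carries iron-sulfur clusters, 0.16, and the oxidoreductase-like Foxred1 0.06 with an interval from -0.16 to 0.28.

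**Figure D2:**
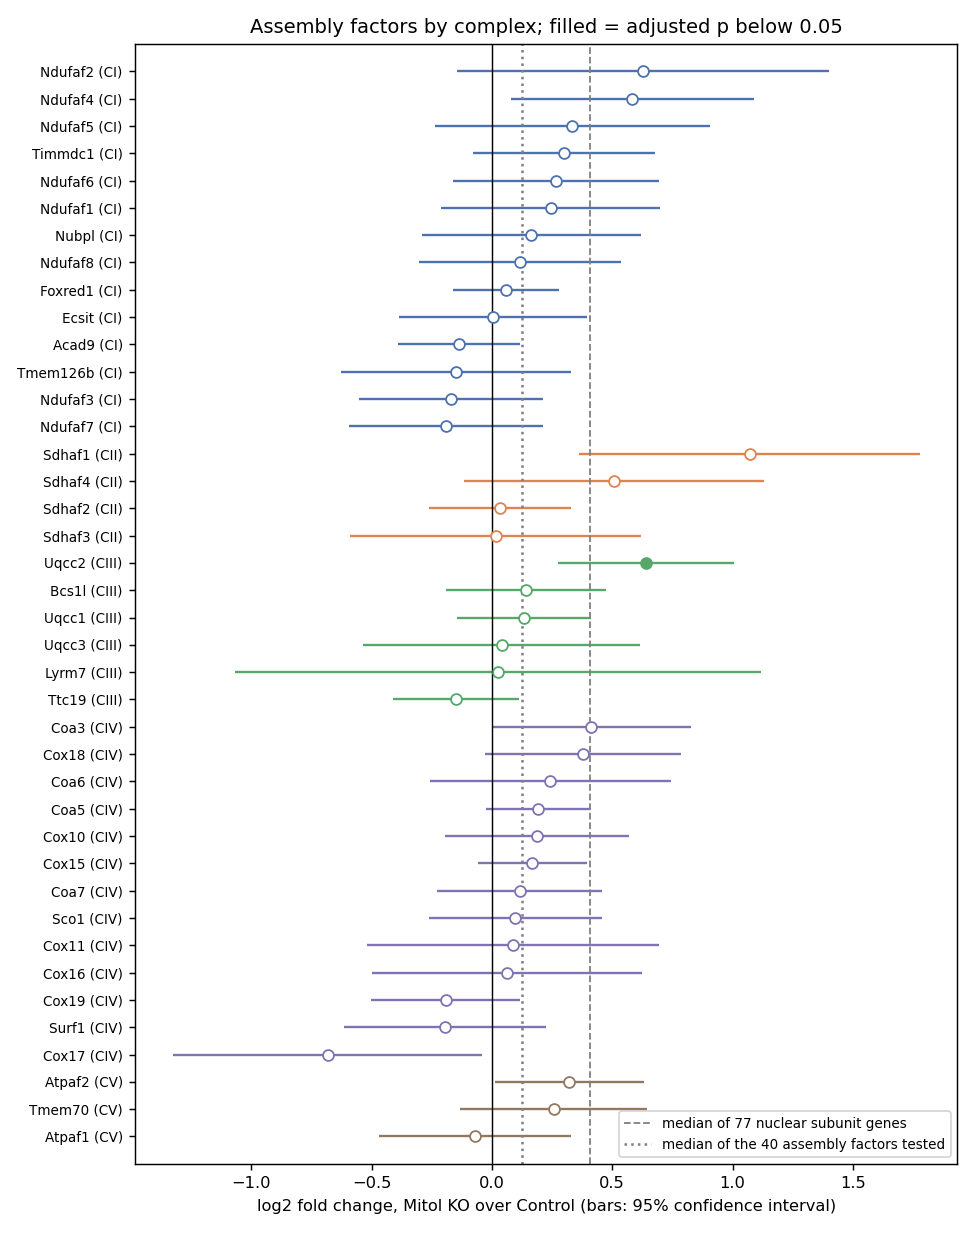
Log2 fold change of each of the 40 assembly factors tested, Mitol KO over Control (horizontal axis), with 95% confidence intervals, ordered within each complex (colours). Uqcc2 is the one filled point, and 35 of the 40 intervals hold 0.

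Complex IV, cytochrome c oxidase, needs heme a and copper, and has the longest list of factors. Of its 15, 13 were tested and none passed in edgeR, while 1 (Cox17) had an unadjusted p under 0.05 and DESeq2 called 0. Coa5 (ENSMUSG00000026112), a small protein required for the enzyme, was the most abundant member in normalized counts. Mitol KO replicates had 1078, 954, 872 and 895 normalized counts and Control replicates 843, 725, 852 and 867. The groups did not overlap, but the lowest Mitol KO and the highest Control library lay close together. The log2 fold change was 0.19 (standard error 0.10, edgeR adjusted p = 0.246).

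Copper is carried to the enzyme by Cox17, which hands it to Sco1 and Cox11, and Cox19, Coa6 and Coa7 belong to the same set of factors in the space between the membranes. Cox17 had the lowest log2 fold change of all members tested, -0.68 (standard error 0.30, edgeR adjusted p = 0.165). Its normalized counts were 77.5, 82.1, 90.6 and 129 in Mitol KO and 107, 99.0, 140 and 251 in Control replicates. Replicate 4 was the highest of each group, and the groups overlapped. Sco1 had a log2 fold change of 0.10, Cox11 0.09, Cox19 -0.19, Coa6 0.24 and Coa7 0.12, and none of these passed the test.

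Heme a is made by Cox10 and Cox15, which had log2 fold changes of 0.19 and 0.17, and Surf1, which acts around its insertion, had -0.20. Cox18, the insertase for a part of Cox2, had 0.38 and Cox16, which acts on copper delivery to Cox2, 0.06. Coa3, which regulates the making of Cox1, was the highest per length, at 235 ± 51.6 normalized counts per kilobase in Control HSCs, within its spread of Coa5 at 213 ± 17.0. It had 359, 283, 258 and 217 normalized counts in Mitol KO and 262, 205, 214 and 151 in Control replicates, a log2 fold change of 0.41 (edgeR adjusted p = 0.191), with one Control library inside the Mitol KO range. Cox20, a chaperone of Cox2, had at most 8 reads in any library and 20 over all 8, too few to compare. Its normalized counts were 0, 0, 1.83 and 2.12 in Mitol KO and 2.64, 2.13, 7.54 and 3.59 in Control replicates. Cox16 shares 1783 of the 2027 bases of its canonical transcript with a read-through gene. Genes on the other strand face 909 of the 1269 bases of Cox11, 2313 of the 4971 of Cox15 and 1867 of the 4881 of Cox20. The counts of these 4 genes are therefore uncertain.

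Complex V makes ATP. Atpaf1 and Atpaf2 chaperone the beta and alpha subunits of its catalytic head, and Tmem70 helps to join subunit c. Atpaf2 was the highest per length, at 138 ± 19.0 normalized counts per kilobase in Control HSCs. It had 292, 361, 344 and 275 normalized counts in Mitol KO and 211, 295, 252 and 245 in Control replicates, with one Control library inside the Mitol KO range (log2 fold change 0.32, edgeR adjusted p = 0.173). Tmem70 had a log2 fold change of 0.26 and Atpaf1 -0.07, and neither passed. At an unadjusted p under 0.05 there was 1 of the 3, Atpaf2, and DESeq2 called 0.

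The members' median log2 fold change was 0.12, beside -0.02 for all genes tested, and 31 of 40 were above 0 where 47.7% of all genes were. With upper-quartile normalization the medians were 0.063 for members and -0.082 for all genes, and with library totals alone 0.071 and -0.075. These are descriptions with no test. Against the mean of the Control libraries, the median member stood at 0.22, 0.22, 0.17 and 0.04 on the log2 scale in Mitol KO replicates 1 to 4 and at 0.06, -0.04, 0.06 and -0.08 in Control replicates 1 to 4. Mitol KO replicate 4 was below Control replicates 1 and 3, and it was the lowest of its group in 21 of 40 members. Without it the median over members was 0.22, and without Control replicate 1 it was 0.21.

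**Figure D3:**
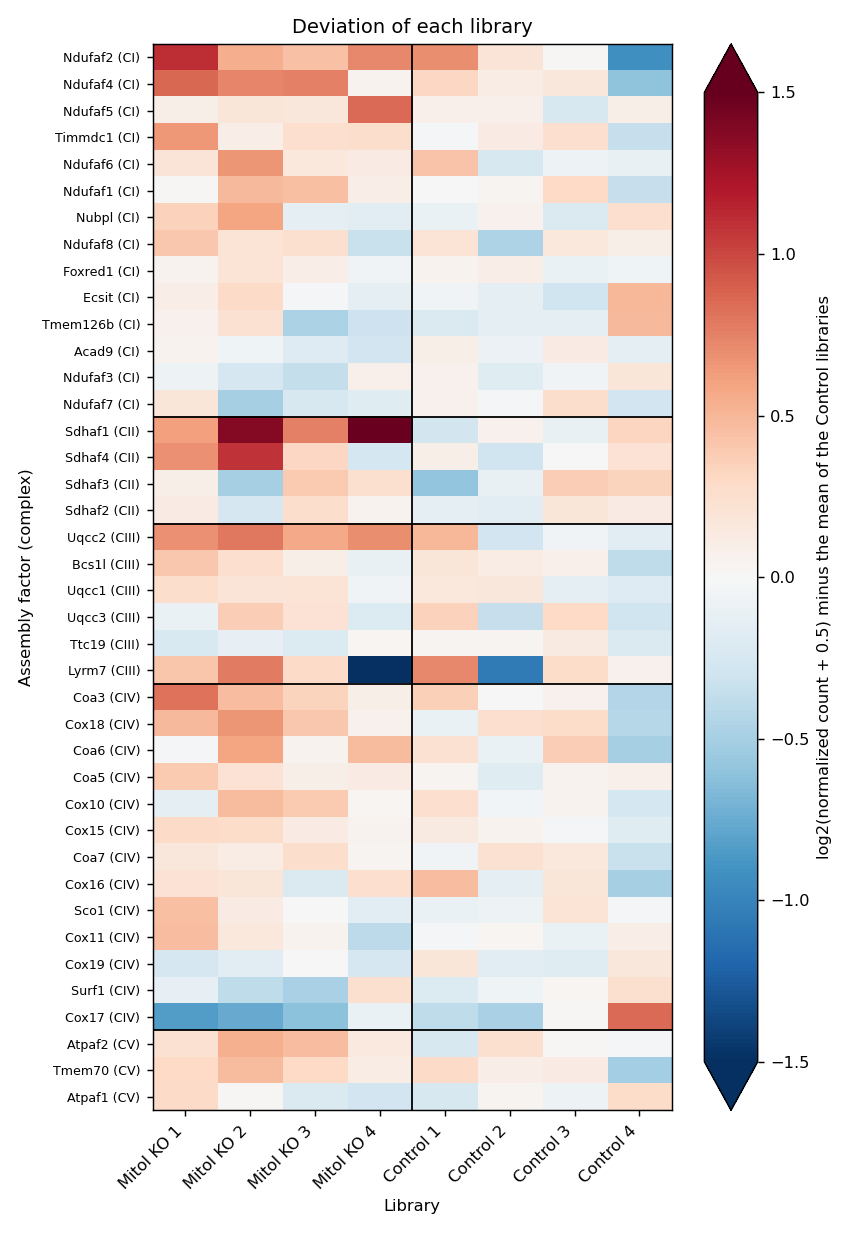
Log2 of the normalized count plus 0.5 in each library minus the mean of the Control libraries (colour), for the 40 assembly factors tested (rows, by complex) in the 8 libraries (columns). Uqcc2 and Sdhaf1 are above the Control mean in all 4 Mitol KO libraries, as are other members, among them Ndufaf2 and Coa5. Mitol KO replicate 4 is the lowest of its group in 21 of 40 rows.

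The nuclear genes for the subunits that these factors assemble are the nearest group of the same pathway. Of 77 subunit genes tested, 24 rose and none fell (31.2%, beside 8.43% of all genes), with a median log2 fold change of 0.41, and 71 of 77 were above 0. At an unadjusted p under 0.05 there were 49 higher and 1 lower, and DESeq2 called 37, none of them lower, beside 14% of all genes. The subunit median was above the assembly factor median in each complex, at 0.31 and 0.14 for complex I, 0.40 and 0.27 for complex II, 0.62 and 0.09 for complex III, 0.53 and 0.12 for complex IV, and 0.42 and 0.26 for complex V. The difference between the groups of genes was not tested. Of the 40 intervals for assembly factors, 14 lay wholly below the subunit median, 26 held it and none lay above it. Leaving out 1 library gave between 3 subunit genes called (without Control replicate 2) and 37 (without Mitol KO replicate 4). Without Mitol KO replicate 3, the library high in Hbb-bs, 10 subunit genes and no assembly factor passed in edgeR. The medians in that fit were 0.43 for subunit genes and 0.14 for assembly factors. The red-cell genes examined still summed to at least 1065 in the remaining Mitol KO libraries and at most 895 in Control libraries. Hbb-bt alone had 801 to 1408 normalized counts in those Mitol KO libraries and 144 to 595 in Control libraries. Each of the other red-cell genes examined overlapped between those Mitol KO libraries and the Control libraries. That fit therefore does not remove the difference in Hbb-bt, and its part was not tested.

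The subunit genes with the lowest p-values in each complex were Ndufb5, Ndufa8 and Ndufb6 for complex I (log2 fold changes 0.58, 0.57 and 0.97), Sdhd and Sdhb for complex II (0.55 and 0.48), Uqcr11, Uqcrc1 and Uqcrh for complex III (0.66, 0.47 and 0.57), Cox6a1, Cox7a2 and Ndufa4 for complex IV (0.72, 0.69 and 0.66) and Atp5f1b, Atp5pb and Atp5mc3 for complex V (0.59, 0.64 and 0.80). Sdhb, the iron-sulfur subunit that Sdhaf1 serves, had 747 ± 111 normalized counts in Mitol KO and 528 ± 73.9 in Control HSCs (SD, n = 4 each; edgeR adjusted p = 0.0423). Atp5f1b, the beta subunit that Atpaf1 chaperones, had 5368 ± 732 and 3511 ± 504, while Atpaf1 itself had a log2 fold change of -0.07. For the alpha subunit Atp5f1a the log2 fold change was 0.39 (edgeR adjusted p = 0.0309), and for its chaperone Atpaf2 0.32 (edgeR adjusted p = 0.173).

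Subunit genes were more abundant, with a median of 299 normalized counts against 161 for assembly factors, and their median standard error was 0.15 against 0.19 on the log2 scale. With both groups split at a mean of 5 log2 CPM, a split chosen after the values were seen, 0 of 8 assembly factors and 16 of 38 subunit genes at or above it passed the edgeR test, with median log2 fold changes of 0.10 and 0.43, beside 12.6% called and a median of 0.05 over all genes there. Of those 8 assembly factors, 0 had an unadjusted p under 0.05 and DESeq2 called 0. Below it 1 of 32 and 8 of 39 passed, with medians of 0.14 and 0.32, beside 5.6% and -0.10 over all genes. The median standard errors at or above the split were 0.12 and 0.13.

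**Figure D4:**
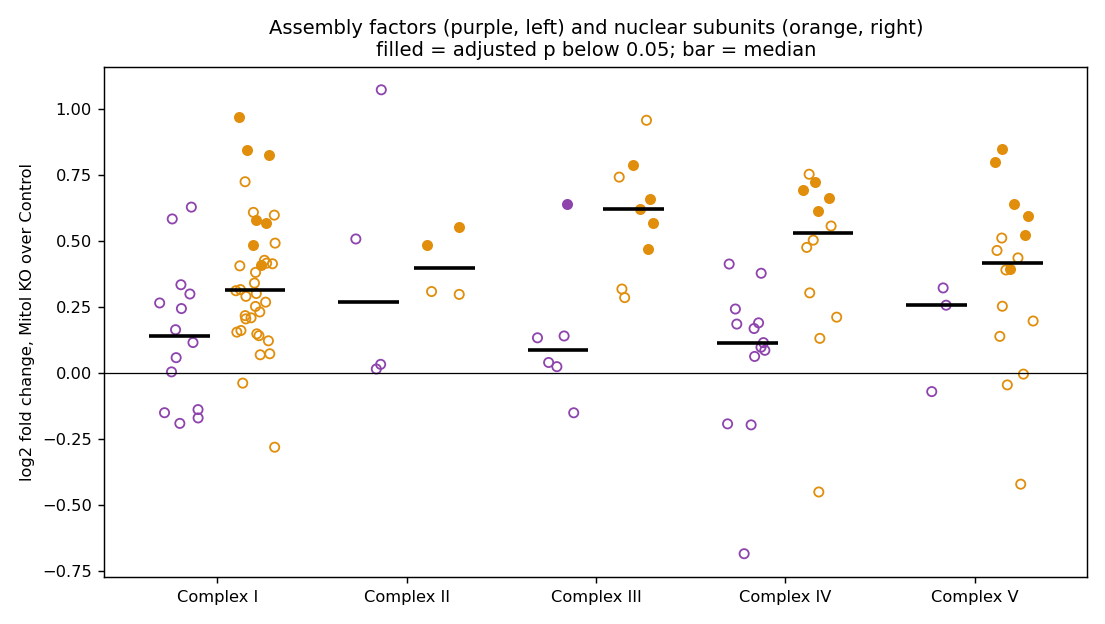
Log2 fold change, Mitol KO over Control, of the assembly factors (purple, left) and nuclear subunit genes (orange, right) of each complex, with medians as black bars and filled points for an adjusted p under 0.05. Filled points are 1 of 40 assembly factors and 24 of 77 subunit genes.

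Of 24 further assembly genes tested outside the 42, 1 rose and none fell by edgeR (4.17%, beside 8.43% of all genes). Their median log2 fold change was 0.09. The gene was Fmc1, a factor for complex V, with 205, 204, 177 and 152 normalized counts in Mitol KO and 149, 104, 102 and 104 in Control replicates (log2 fold change 0.67, standard error 0.18, edgeR adjusted p = 0.0409). Its groups did not overlap. It was not called without any one of Mitol KO replicates 1, 2 and 3 or Control replicates 2, 3 and 4. DESeq2 called 2 of the 24, Fmc1 and Dmac2l, where it called 14% of all genes. Dmac2l, named after its values were seen, had 180 ± 8.79 normalized counts in Mitol KO and 241 ± 17.7 in Control HSCs (SD, n = 4 each), a log2 fold change of -0.43 (edgeR adjusted p = 0.0541).

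Of the 13 mRNAs of mitochondrial DNA, which encode the subunits around which several of these factors work, 7 were tested. All 7 had a log2 fold change above 0, with a median of 0.26, and 1 passed the edgeR test (14.3%, beside 8.43% of all genes). That was mt-Nd2, a complex I subunit, at 956 ± 213 normalized counts in Mitol KO and 610 ± 77.1 in Control HSCs (SD, n = 4 each; log2 fold change 0.63, edgeR adjusted p = 0.0288), likewise named after its values were seen.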

How the data were processed

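The authors aligned single-end reads with STAR to mm39, used SAMtools to merge alignments and Subread for counting, and deposited the raw counts per gene. The annotation and strand setting are not given in the sources used here, and the library kit does not mark strand. Of 23094 rows, 1029 carry no gene symbol (0.335% to 0.467% of a library's counts) and were left out. The lowest row sum is 11. Library totals were 7214935 to 12398138.

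Counts were tested with edgeR (version 4.0.16; TMM, filterByExpr, quasi-likelihood test, condition as the sole term, R 4.3.3), with Benjamini-Hochberg adjustment over 16444 genes at 0.05. DESeq2 (version 1.42.0) gave size factors and an alternative test, and limma-voom (limma version 3.58.1) another. Other alternatives covered normalization, filters, a replicate block and leaving out each library. Single members were also compared by exact permutation over 70 arrangements. Fits were tested on simulated counts. Per-library log2 values used a pseudocount of 0.5. Positions and canonical transcript lengths came from GENCODE vM39 (GRCm39). Some marker genes are not reported here. Members and lists were chosen with earlier results of these data known. Values in every library are given for members called or with an adjusted p under 0.1 (edgeR) or 0.05 (DESeq2), with separate groups, or highest per length in a complex. Outside the members, up to 3 subunits per complex with the lowest p and other assembly genes past the threshold are named. Uqcc1, Ndufaf4, Cox17, Cox20, Atp5f1a and the low libraries of Lyrm7 were added after values were seen.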

Additional observations from a re-analysis of the deposited data

Results flagged for a closer look

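In 4 of 80 groups of 4 libraries (40 members in 2 groups), 1 library stood apart from the others by Dixon's criterion, about the number that chance gives at 1 in 20. Ndufaf5 had 75.1 normalized counts in Mitol KO replicate 4, where the other Mitol KO libraries had 43.8 to 46.8. It had 34.9 in Control replicate 3, where the other Control libraries had 43.5 to 44.0. Ndufaf6 had 198 in Mitol KO replicate 2, beside 135 to 143 in the others of its group. Tmem126b had 181 in Control replicate 4, beside 111 to 117 in the others of its group. None of these 3 genes passed the test between groups.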

How the results depend on the processing

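Under the other normalizations, filters and tools, Uqcc2 kept its call, and its log2 fold change was 0.58 to 0.69. The DESeq2 test called 2 members (both higher), 37 subunit genes, 2 other assembly genes and 2315 genes in all, and a filter at a mean of 50 counts called 2 other assembly genes. Leaving out 1 library in turn gave 0 to 2 members (all higher), a member median of 0.10 to 0.22, a subunit median of 0.35 to 0.49, 3 to 37 subunit genes, 0 to 2 other assembly genes and 359 to 2501 genes in all. The fewest subunit genes were called without Control replicate 2 and the most without Mitol KO replicate 4. These fits hold fewer libraries, and the cause was not otherwise tested.

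Of 40 members, 12 changed sign under some setting, all with a log2 fold change within 0.15 of 0. With upper-quartile normalization the values were -0.062 for Ecsit, -0.0042 for Foxred1, -0.029 for Sdhaf2, -0.047 for Sdhaf3, -0.042 for Lyrm7 and -0.021 for Uqcc3. With library totals alone they were -0.058 for Ecsit, -0.025 for Sdhaf2, -0.046 for Sdhaf3, -0.024 for Lyrm7 and -0.010 for Uqcc3. With a mean of at least 50 counts they were -0.026 for Ecsit and -0.012 for Sdhaf3, and with limma-voom -0.00055 for Sdhaf3 and -0.12 for Lyrm7. With 1 library left out, the ranges were -0.014 to 0.27 for Ndufaf8, -0.27 to 0.049 for Tmem126b, -0.092 to 0.21 for Ecsit, -0.031 to 0.13 for Sdhaf2, -0.13 to 0.17 for Sdhaf3, -0.24 to 0.38 for Lyrm7, -0.067 to 0.17 for Uqcc3, -0.055 to 0.24 for Cox11, -0.082 to 0.25 for Cox16, -0.027 to 0.20 for Sco1 and -0.19 to 0.034 for Atpaf1.

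Libraries with the same replicate number showed little joint deviation (correlations of 0.08, -0.07, 0.05 and 0.07). The labels do not say whether the numbers pair libraries, and correlations between libraries of 100 cells cannot settle it. With the replicate block, 1 member, 28 subunit genes, 1 other assembly gene and 1652 genes in all were called, the member median was 0.13, and Lyrm7 had -0.12. Each library was made from 100 cells, and low members such as Sdhaf1 and Lyrm7 rest on few reads, which are not independent molecules.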
